A study of Mus musculus with 8 samples.

Results

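A gene that spans many kilobases is nearly all intron, and in the livers studied here 173 protein-coding genes of this kind were measured. They were chosen from the deposited count table as every protein-coding gene with a span over 400 kb from its first to its last annotated base and a sum of at least 100 counts over the 8 libraries, with Pkhd1, Esr1 and Thrb left out by name. Of 54532 genes in the table, 353 protein-coding genes exceeded the span, 174 of them reached the sum, and Pkhd1 was the 1 left out by name among these. The sum of counts was thus used to choose the genes and is given only as a description: it ran from 102 to 105601 with a median of 1201. Just outside the span limit lay Esr1 (394022 bases), Adk (395996) and Plxdc2 (399536), and just inside it Dst (400437), Dock4 (400923) and Trhde (403485). Just under the count minimum lay Slit3 (89 counts), Lrmda (96) and Grip1 (97), and just above it Pde1c (102), Thsd7a (104) and Cep112 (104).

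The study asked how loss of Matr3 in the liver alters its transcriptome. Mice with floxed Matr3 alleles and no stated Cre (floxed) were compared with mice that also carried Albumin-Cre, which is driven by a promoter active in hepatocytes (LKO, liver-specific knockout), in females and in males. The mice were 16 weeks old and ate a chow diet, and each of the 8 stranded poly(A) libraries pooled the livers of 2 mice, with 2 libraries in each of the 4 groups. No group carried Albumin-Cre without floxed alleles, so what Cre does on its own and what Matr3 loss does cannot be told apart. The p-values reflect variation between pools of 2 mice. Below, "female floxed 1" names the first library of that group, and a level is given in CPM, a count scaled to the normalised library size as edgeR gives it.

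Transcription of such a gene proceeds for a long time before the first full transcript is released, and the introns are removed while the polymerase is still moving. Very long genes are known from the nervous system, where they encode adhesion molecules, receptors and synaptic scaffolds, and several of them coincide with common fragile sites, regions prone to breakage under replication stress. Matrin-3, the product of Matr3, is an RNA- and DNA-binding protein of the nuclear matrix that binds within introns and affects splicing.

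The 173 genes had a median span of 526.9 kb, from 400.4 to 2960.9 kb, and 21 exceeded 1000 kb. They lay on 20 chromosomes, 4 of them (Arhgap6, Eda, Dmd and Diaph2) on the X chromosome. Exons covered a median of 1.78% of the span. Even so, their exonic length (median 10768 bases) exceeded that of the other protein-coding genes tested (4282 bases), and they had 25 exon blocks against 9. The longest stretch between exons was 157 kb at the median, against 6.58 kb. In RefSeq (GRCm38.p6) 164 of the 170 genes with an entry also exceeded 400 kb. The exceptions included Fgfr2, Zfp407, Rasgef1b, Fam110b and Nfib. The deposited span of Fgfr2 (2960.9 kb) was the longest of all, against 104.4 kb in RefSeq.

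Promoter windows are shown for the genes with the smallest p among those that fell in LKO livers (below) and that have a RefSeq window. Whether the promoter sequences bear on the fall was not tested. Each is 300 bases long, from 250 before to 50 after the RefSeq start site, 5′ to 3′ on the gene's strand. Capitals mark the GC box, searched as GGGCGG or CCGCCC. Gphn lies at chr12:78226405-78226704 (plus strand, start site 276 bases from the deposited end of the gene), Pcsk5 at chr19:17837583-17837882 (minus strand) and Sugct at chr13:17694716-17695015 (minus strand, 788 bases away), all in GRCm38.p6.
Gphn: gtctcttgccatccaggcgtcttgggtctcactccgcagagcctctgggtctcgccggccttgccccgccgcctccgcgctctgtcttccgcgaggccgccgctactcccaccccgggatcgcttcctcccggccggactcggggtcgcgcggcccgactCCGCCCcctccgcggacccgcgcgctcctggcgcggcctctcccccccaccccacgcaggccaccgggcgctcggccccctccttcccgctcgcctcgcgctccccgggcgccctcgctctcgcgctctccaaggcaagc
Pcsk5: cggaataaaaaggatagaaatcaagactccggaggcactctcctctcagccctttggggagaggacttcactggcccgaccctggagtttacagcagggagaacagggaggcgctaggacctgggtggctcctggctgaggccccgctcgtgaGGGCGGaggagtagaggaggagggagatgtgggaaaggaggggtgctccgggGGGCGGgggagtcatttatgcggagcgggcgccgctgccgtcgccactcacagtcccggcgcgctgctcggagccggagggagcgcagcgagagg
Sugct: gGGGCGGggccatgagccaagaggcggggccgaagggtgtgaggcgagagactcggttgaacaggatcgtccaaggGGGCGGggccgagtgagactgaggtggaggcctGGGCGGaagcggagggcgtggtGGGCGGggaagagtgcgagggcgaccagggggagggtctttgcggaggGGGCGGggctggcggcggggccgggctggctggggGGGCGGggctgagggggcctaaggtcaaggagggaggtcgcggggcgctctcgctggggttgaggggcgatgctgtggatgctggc
The Gphn window held 1 GC box, that of Pcsk5 2 and that of Sugct 6. Of the 129 very long genes with a window, 71 held a GC box (55%), against 35.7% of all 32851 windows. Of the 7 genes with a window among the 14 that fell in the mean of both sexes, 5 held one. TATAAA or TTTATA occurred in 10.1% of the very long genes' windows, in 0 of these 7 and in 13.6% of all windows. The median number of CpG pairs was 19 in the very long genes' windows, 22 in those of the 7 and 7 over all windows. The set of all windows was not limited to genes tested here or to 1 window per gene, so these comparisons are not matched for expression. For each very long gene the window nearest its deposited 5′ end was used. Some lay far from that end, as for Fgfr2 (2856542 bases) and Sox5 (834871 bases).

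The deleted gene was measured first as a check of the labels. Matr3 (ENSMUSG00000037236) ran from 52.7 to 59.3 CPM over the 4 floxed libraries and from 26.4 to 32.8 CPM over the 4 LKO libraries. Its mean log2 fold change was -0.92 (SE 0.06, adjusted p = 0.000346). Total counts per library ran from 28048469 to 43383157, and the 2 male floxed libraries differed most within a group (chi-square per degree of freedom 52.2, against 11 to 23.3 in the others). All 173 very long genes passed the low-count filter, as part of 16613 genes tested. Fewer than 2 floxed libraries of Rims2, and fewer than 2 LKO libraries of Nrg1 and Pde1c, reached 10 counts, so these genes rest on 1 side of the comparison. Between the sexes this holds for Grm8 and Rims2 (fewer than 2 female libraries) and for Fam110b (fewer than 2 male libraries). All of these genes are kept in the counts below.

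In LKO livers the very long genes were lower as a group in both sexes. In the mean of both sexes 14 of the 173 fell and 0 rose (edgeR quasi-likelihood test, Benjamini-Hochberg adjusted p under 0.05), where 0.975% of all genes tested fell and 0.777% rose. The 14 make 8.09% of the very long genes. They included the oxidation resistance gene Oxr1, the glutamate receptor gene Grid1, the carboxypeptidase gene Cpq, Wwox, Vps13b, Gphn, Pcsk5, Sugct, Slc39a11, Adamtsl1, Fhit, Dlgap1 and Immp2l. At an unadjusted p under 0.05, 57 were lower (Nrg1 and Pde1c among them) and 10 higher, where the shares of all genes were 9.36% and 8.82%. The median log2 fold change of the 173 was -0.20 (middle 50% from -0.52 to -0.00), against -0.00 over all genes tested. This places the median very long gene at 87.2% of its floxed level. The median depended on the count minimum: over the genes with a sum of at least 1000 counts it was -0.096 in the mean of both sexes and -0.071 in males. With 1 library left out it ran from -0.21 to -0.14 in the mean and from -0.26 to -0.080 in males. A negative log2 fold change was found for 130 of the 173, against 51.0% of all genes.

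Oxr1 was the clearest member of this group. It measured 59.7 and 57.4 CPM in female floxed 1 and 2, 35.1 and 32.7 CPM in the female LKO pair, 61.5 and 62.7 CPM in the male floxed pair and 40.9 and 41.4 CPM in the male LKO pair. Every LKO library was below every floxed library, and the gap exceeded the distance between replicates. The number of very long genes called depended on single libraries. It was 1 without female floxed 2, 2 without female floxed 1, female LKO 2, male LKO 1 or male LKO 2, and 27 without male floxed 2. All 14 genes kept a negative log2 fold change in each of these fits. Oxr1 passed in all 8 fits that left out a library, and each of the other 13 in 1 to 5 of them.

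The same shift can be given library by library. Relative to the floxed mean of the same sex, the median very long gene lay at -0.15 and -0.17 (log2) in the female LKO libraries and at -0.21 and -0.14 in the male LKO libraries. The 2 floxed libraries of a sex lay within 0.0047 of their mean in females and within 0.038 in males. All 4 LKO libraries were thus on the same side and outside the range of the floxed ones. The floxed pair of a sex is its own reference here, so its 2 values mirror each other around 0. Their range is therefore no independent measure of spread, and these values restate the comparison of groups above. The summed level of the 173 genes ran from 2667 to 3167 CPM over the 8 libraries. Of the 173 genes, 40 (Nrg1 among them) had every LKO library below every floxed library in both sexes, where 7.80% of all genes did. Only 6 had every LKO library above, where 7.90% of all genes did.

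**Figure D1:**
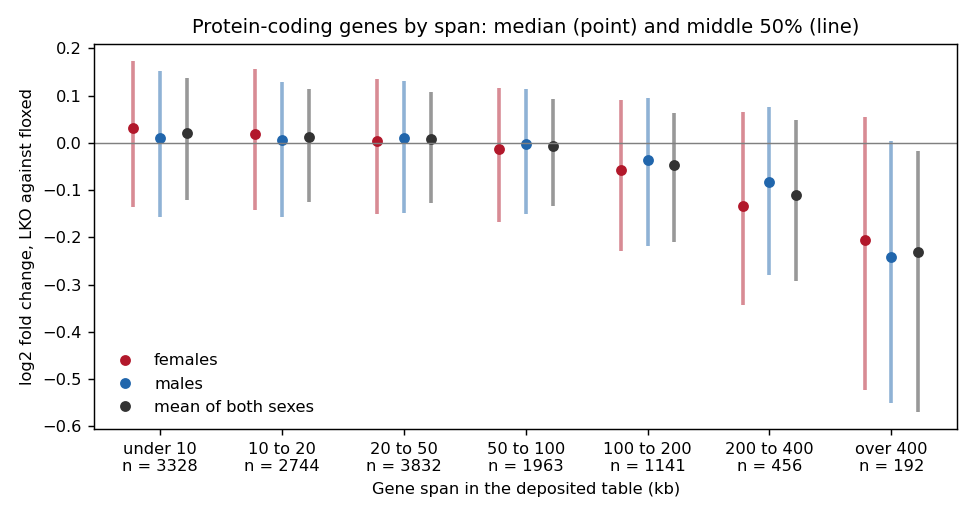
Protein-coding genes tested, in bins of gene span (x axis, kb), with the median log2 fold change of LKO against floxed livers as a point and the middle 50% of genes as a line, for females, males and the mean of both sexes. The median lies near 0 up to 100 kb and falls to -0.05, -0.11 and -0.23 in the last 3 bins in the mean of both sexes.

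The shift was not limited to one side of the 400 kb limit. Over all protein-coding genes tested, the median log2 fold change in the mean of both sexes was 0.02 under 10 kb, 0.01 from 10 to 20 kb and from 20 to 50 kb, and -0.01 from 50 to 100 kb. It was -0.05 from 100 to 200 kb, -0.11 from 200 to 400 kb and -0.23 over 400 kb, the last bin holding 192 genes because it has no count minimum and keeps Pkhd1. In the bin from 200 to 400 kb, 12 of 456 genes fell and 4 rose. Across the 13656 protein-coding genes tested, Spearman's rho of the log2 fold change with span was -0.12 (across genes, which are not independent replicates). With level it was 0.25, larger in size than with span, and the bins of span are not matched for level.

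Within the very long genes span did not order the values. The median was -0.16 in the 73 genes of 400 to 500 kb, -0.24 in the 38 of 500 to 600 kb, -0.07 in the 25 of 600 to 800 kb, -0.26 in the 16 of 800 to 1000 kb and -0.17 in the 21 over 1000 kb. Genes that fell numbered 4, 2, 1, 5 and 2 in these bins. The 5 of the 800 to 1000 kb bin were Wwox, Adamtsl1, Immp2l, Dlgap1 and Sugct. Spearman's rho with span over the 173 genes was -0.12.

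**Figure D2:**
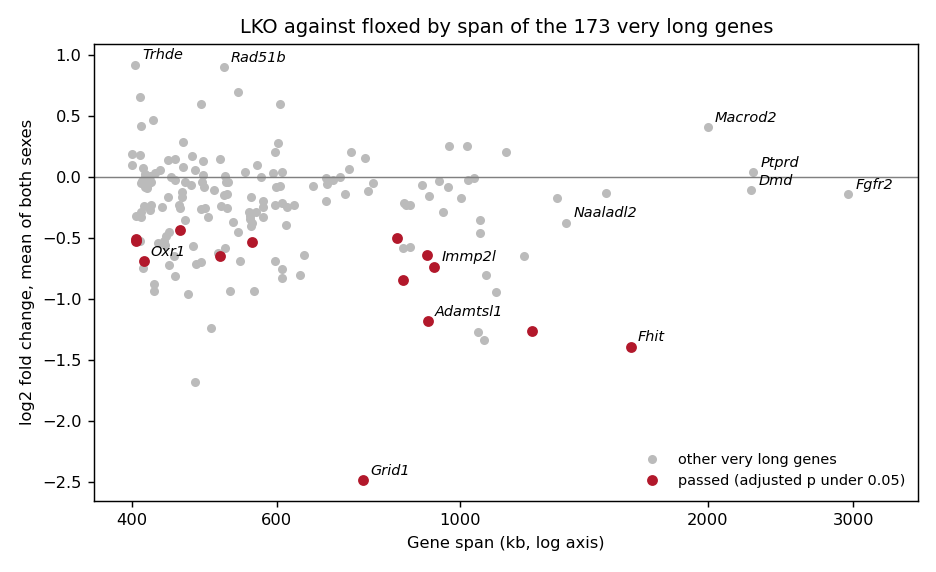
Each point is 1 of the 173 very long genes, with its deposited span (x axis, kb, log axis) and its log2 fold change of LKO against floxed livers in the mean of both sexes (y axis). The 14 genes that passed are in red and lie between 404.8 kb (Pcsk5) and 1611.9 kb (Fhit), and Grid1 is the lowest at -2.48.

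The log2 fold change of a very long gene moved with its level (Spearman's rho 0.35 over the 173 genes). It moved more weakly with exonic length (0.16, against -0.12 with span). The median was -0.52 in the 32 genes under 1 CPM, -0.32 in the 61 from 1 to 5 CPM, -0.07 in the 35 from 5 to 20 CPM and -0.09 in the 45 over 20 CPM. Protein-coding genes of 20 to 50 kb at the same levels had medians of -0.20, -0.11, -0.00 and 0.04, so that low-level genes lay lower in both length classes and the very long ones lay lower at each level. By exonic length the median was -0.52 in the 14 genes under 5 kb of exon (5 fell), -0.24 from 5 to 8 kb, -0.20 from 8 to 12 kb and -0.14 in the 80 genes over 12 kb (3 fell). The part of level in the shift was not tested.

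The largest share of the calls was in a mixed group of 13 genes for metabolic enzymes, glycan synthesis and mitochondrial or protein quality control, a list put together with earlier results of these data known. In this group 6 fell, 0 rose and 12 of 13 had a negative log2 fold change, with a median of -0.64. They included Oxr1, Wwox, Pcsk5, Fhit and Immp2l, of which Pcsk5 encodes a proprotein convertase of the secretory pathway.

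Oxr1 (ENSMUSG00000022307, mm10 chromosome 15, 41447482 to 41861048, plus strand) protects cells against oxidative damage. The group means were 58.6 ± 1.6 and 33.9 ± 1.7 CPM in female floxed and LKO livers and 62.1 ± 0.87 and 41.2 ± 0.37 CPM in males (SD, n = 2). The log2 fold change was -0.69 in the mean (SE 0.05, adjusted p = 0.000974), which left 62.0% of the floxed level.

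Fhit (chromosome 14, 9550092 to 11162035, minus strand), a dinucleotide hydrolase gene at a well-known fragile site, was at 1.86 and 1.93 CPM in female floxed and 0.639 and 0.255 CPM in female LKO livers. The male floxed pair had 1.41 and 1.5 CPM and the male LKO pair 0.760 and 0.951 CPM. No LKO library reached the lowest floxed library. The mean log2 fold change was -1.39 (SE 0.27, adjusted p = 0.0406).

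Immp2l (chromosome 12, 41024090 to 41955588, plus strand) encodes a subunit of the inner mitochondrial membrane peptidase, which trims imported proteins. Its levels were 16.4 and 16.1 CPM in female floxed, 10.3 and 6.91 CPM in female LKO, 11.5 and 16.5 CPM in male floxed and 9.20 and 9.80 CPM in male LKO livers. The groups did not overlap within a sex, although male floxed 1 came near the male LKO libraries. The fall was -0.74 on the log2 scale (SE 0.15, adjusted p = 0.0456).

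Wwox (chromosome 8, 114439655 to 115352708, plus strand), a WW-domain oxidoreductase gene that likewise spans a fragile site, had 2 closely matching female floxed libraries (9.49 and 9.48 CPM) against 6.14 and 5.35 CPM in female LKO livers. The male floxed pair had 8.20 and 8.70 CPM and the male LKO pair 6.08 and 5.34 CPM. Females gave a log2 fold change of -0.72 and males one of -0.56, and the mean of -0.64 passed (SE 0.10, adjusted p = 0.0209).

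Pcsk5 (chromosome 19, 17432832 to 17837632, minus strand) was at 17.0 and 19.2 CPM in female floxed, 15.4 and 13.9 CPM in female LKO, 11.8 and 11.7 CPM in male floxed and 6.48 and 7.5 CPM in male LKO livers. It was lower in LKO livers of each sex and lower in males of each genotype, so that the 4 groups did not overlap. The mean log2 fold change was -0.52 (SE 0.09, adjusted p = 0.0247), with -0.30 in females and -0.75 in males. The difference between these had an unadjusted p of 0.0266 and an adjusted p of 0.64.

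The other 7 genes of this group did not pass. Dpyd, the gene of the enzyme that starts pyrimidine breakdown and the most abundant very long gene per exonic length (42.7 CPM per kb), was at 413 and 435 CPM in female floxed and 406 and 329 CPM in female LKO livers. The male floxed pair had 429 and 362 CPM and the male LKO pair 341 and 320 CPM. Its LKO libraries lay below the floxed ones in both sexes, with a log2 fold change in the mean of -0.23 that did not pass (SE 0.09, adjusted p = 0.21). Macrod2, an ADP-ribosyl hydrolase gene and 1 of the longest of all at 1997.7 kb, was the 1 gene of the group with a positive value (0.41, adjusted p = 0.17).

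**Figure D3:**
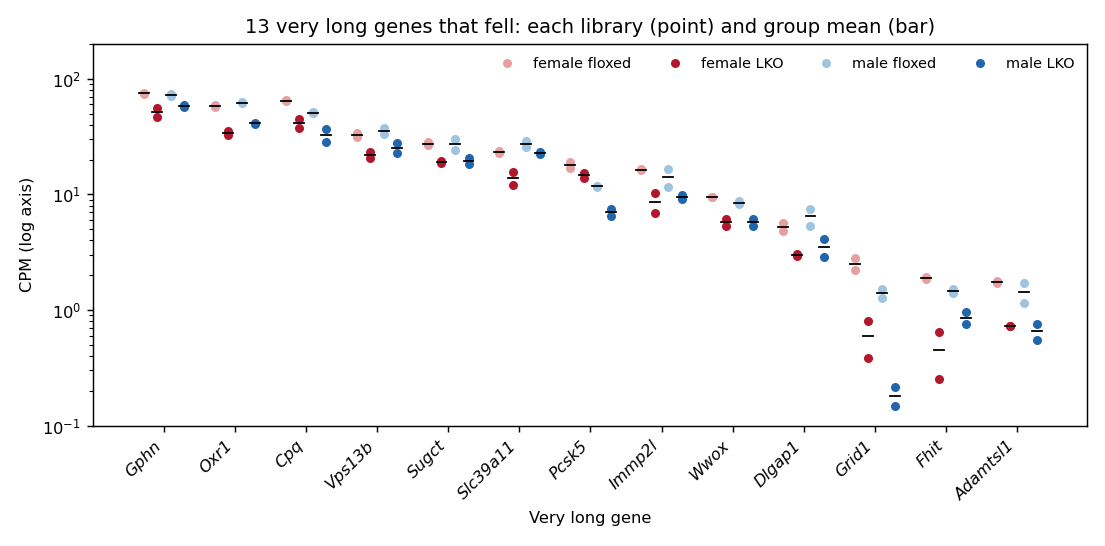
Level of 13 of the very long genes that fell in the mean of both sexes (x axis, ordered by level) in CPM (y axis, log axis). Points are the 8 libraries, coloured by sex and genotype, and bars are group means of 2 libraries. For each of the 13 genes both LKO libraries lie below both floxed libraries of the same sex.

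Genes of channels, transporters and receptors numbered 13, of which 2 fell, 0 rose and 10 had a negative log2 fold change (median -0.38). Grid1 (ENSMUSG00000041078, chromosome 14, 34820108 to 35583379, plus strand), a glutamate receptor family gene best known from the cerebellum, had the largest fall of all 173 genes. It was at 2.22 and 2.80 CPM in female floxed, 0.798 and 0.382 CPM in female LKO, 1.53 and 1.28 CPM in male floxed and 0.217 and 0.146 CPM in male LKO livers. The groups were far apart in both sexes, at a low level throughout. On the log2 scale it fell by 2.48 (SE 0.30, adjusted p = 0.00891), which left 17.9% of the floxed level. Without female floxed 2 its adjusted p was 0.0529, without male LKO 1 0.0545 and without male LKO 2 0.0544.

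Slc39a11 (chromosome 11, 113244853 to 113650079, minus strand), a zinc transporter gene, was at 23.0 and 23.6 CPM in female floxed, 15.8 and 12.1 CPM in female LKO, 25.8 and 29.2 CPM in male floxed and 22.3 and 23.1 CPM in male LKO livers. The gap was wider in females. The log2 fold change was -0.51 in the mean (SE 0.09, adjusted p = 0.0299) and -0.73 in females (adjusted p = 0.0477), while males gave -0.28 (adjusted p = 0.42). The difference between the sexes did not pass (adjusted p = 0.64). Its gene overlaps Cog1, at 21.9 CPM, on the opposite strand, and the strand setting used in counting is not known here. Nrg1, a growth factor gene of the ErbB pathway with 106 counts in all, gave -1.34 and did not pass (adjusted p = 0.11).

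Of the 30 scaffold, cytoskeleton and trafficking genes 2 fell, 0 rose and 20 had a negative value, with a median of -0.07. Gphn (chromosome 12, 78226379 to 78684772, plus strand) encodes gephyrin, which anchors inhibitory synapses in neurons and makes the molybdenum cofactor in other tissues including liver. Its levels were 74.3 and 74.9 CPM in female floxed, 56.2 and 46.5 CPM in female LKO, 71.1 and 74.4 CPM in male floxed and 57.0 and 59.3 CPM in male LKO livers. The floxed libraries of both sexes lay within a narrow range, above all 4 LKO libraries. The fall came to -0.43 on the log2 scale (SE 0.07, adjusted p = 0.0240). Per exonic length Gphn was the most abundant very long gene after Dpyd, at 17.1 CPM per kb.

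Vps13b (chromosome 15, 35371160 to 35931229, plus strand), which encodes a lipid transfer protein of the Golgi, was at 34.0 and 31.5 CPM in female floxed and 23.3 and 20.7 CPM in female LKO livers. The male floxed pair had 37.1 and 33.4 CPM and the male LKO pair 22.7 and 27.6 CPM. All 4 LKO libraries were below all 4 floxed ones (log2 fold change -0.53, SE 0.08, adjusted p = 0.0209). Vps13b overlaps Cox6c, at 203 CPM, on the opposite strand. Dmd, the dystrophin gene, spans 2257.3 kb and had a log2 fold change of -0.11 (adjusted p = 0.52), and Dst, the cytoskeletal linker dystonin, one of 0.19 (adjusted p = 0.15).

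The 8 matrix and secreted genes all had a negative log2 fold change (median -0.67), and 1 fell. Adamtsl1 (chromosome 4, 85514172 to 86428385, plus strand), an ADAMTS-like matrix glycoprotein gene, was at 1.72 and 1.78 CPM in female floxed, 0.730 and 0.732 CPM in female LKO, 1.14 and 1.69 CPM in male floxed and 0.760 and 0.548 CPM in male LKO livers. Its floxed and LKO libraries did not overlap (log2 fold change -1.18, SE 0.23, adjusted p = 0.0406). Lama2, a laminin chain gene of basement membranes, was next at -0.80 (adjusted p = 0.0588), with 2.72 and 2.34 CPM in female floxed against 1.60 and 1.56 CPM in female LKO livers. Markers of stellate cells, which make much of the liver's matrix, were lower in the same libraries: without Reln, which is itself 1 of the very long matrix genes, their summed level was 562 to 593 CPM in female floxed and 472 to 499 CPM in female LKO livers, and 412 to 522 CPM in male floxed and 351 to 362 CPM in male LKO livers. All 12 of these other markers had a negative log2 fold change and 4 fell. Their part in the values of the matrix genes was not tested, and in bulk RNA fewer cells of a type and less RNA per cell cannot be told apart.

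Of 12 genes of DNA repair, vesicle and other functions, 1 fell, 0 rose and 10 had a negative value in the mean of both sexes (median -0.29). Cpq (chromosome 15, 33083129 to 33594552, plus strand), a secreted and lysosomal carboxypeptidase gene, was at 64.2 and 65.2 CPM in female floxed, 44.9 and 37.4 CPM in female LKO, 50.4 and 51.4 CPM in male floxed and 36.9 and 28.2 CPM in male LKO livers. Each sex gave a log2 fold change of -0.65, and the mean passed (SE 0.09, adjusted p = 0.0169).

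The other 2 genes that fell belong to none of these groups. Sugct (chromosome 13, 16857472 to 17695553, minus strand), which encodes a mitochondrial CoA-transferase of glutarate metabolism, was at 26.6 and 28.2 CPM in female floxed, 19.5 and 18.5 CPM in female LKO, 24.2 and 30.2 CPM in male floxed and 20.6 and 18.4 CPM in male LKO livers. Its log2 fold change was -0.50 (SE 0.08, adjusted p = 0.0269). Sugct overlaps Mplkip, at 9.89 CPM, on the opposite strand. Dlgap1 (chromosome 17, 69969073 to 70821413, plus strand), a postsynaptic scaffold gene, was at 4.81 and 5.68 CPM in female floxed, 3.03 and 2.93 CPM in female LKO, 7.51 and 5.37 CPM in male floxed and 2.90 and 4.13 CPM in male LKO livers. Its log2 fold change came to -0.84 (SE 0.16, adjusted p = 0.0413). Sugct and Dlgap1 both had every LKO library below every floxed library.

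In the remaining 3 groups 0 genes passed in either direction in the mean of both sexes. The 18 adhesion genes had a median of -0.11 and 15 negative values, but in females the median was 0.03 with 8 negative values, and in males -0.28 with 15. Their smallest p was that of the neural adhesion gene Ncam2 (-0.93, adjusted p = 0.11), followed by the teneurin gene Tenm3 (-0.40, adjusted p = 0.12) and the semaphorin genes Sema5a (-0.81) and Sema6d (-0.24). The 17 kinase, phosphodiesterase and GTPase signalling genes had a median of -0.11 and 14 negative values, with Arhgap6 at -0.62 (adjusted p = 0.0594), Tnik at -0.74 and Camk1d at -0.27. The 22 transcription, chromatin and RNA-binding genes had a median of -0.12 and 11 negative values, with Sox5 at -0.28 (adjusted p = 0.0904), Foxp2 at -0.69, Esrrg at 0.60 and Mecom at -0.69. Nfib, 1 of the most abundant very long genes at 5.69 CPM per kb, had a log2 fold change of 0.00.

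Of the 19 very long genes listed at fragile sites, which overlaps the groups above, 4 fell (Wwox, Fhit and Immp2l among them), 0 rose and 16 had a negative value, with a median of -0.23. This is close to the median of all 173 genes (-0.20). Naaladl2 and Dpyd also had all LKO libraries below the floxed ones in both sexes without passing. Pard3b (-0.17), Pde4d (-0.13) and Dmd (-0.11) had negative values that did not pass, and Ptprg (-0.01) and Diaph2 (-0.00) had values near 0.

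Females and males were measured in separate libraries that share no control, which allows the 2 effects to be set side by side. In females 2 very long genes fell (Oxr1 and Slc39a11) and 1 rose (Rad51b), where 0.313% of all genes fell and 0.271% rose. In males 1 fell (Oxr1) and 0 rose, where the shares of all genes were 0.132% and 0.0722%. At an unadjusted p under 0.05, 43 were lower and 8 higher in females, where 7.10% and 7.00% of all genes were. In males 36 were lower and 4 higher, where 6.16% and 5.68% of all genes were. The median log2 fold change was -0.20 in females and -0.18 in males, against -0.00 and -0.01 over all genes. A negative value in both sexes was found for 93 genes, where 30.8% of all genes had one, and a positive value in both for 23, where 29.6% of all genes did. Spearman's rho between the 2 effects was 0.51 over the 173 genes.

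Within females, 86 genes had both LKO libraries below both floxed ones and 23 had both above, where 25.3% of all genes lay each way. Within males the numbers were 70 and 13, where 20.1% and 19.9% of all genes did. The calls within a sex rested on single libraries: the female number of 3 was 0 without female floxed 1 or female LKO 2, 1 without female floxed 2, 5 without female LKO 1 and 13 without male floxed 1 or male floxed 2. The male number of 1 was 0 without female floxed 1, female floxed 2, male LKO 1 or male LKO 2, 2 without female LKO 2 and 9 without male floxed 2.

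**Figure D4:**
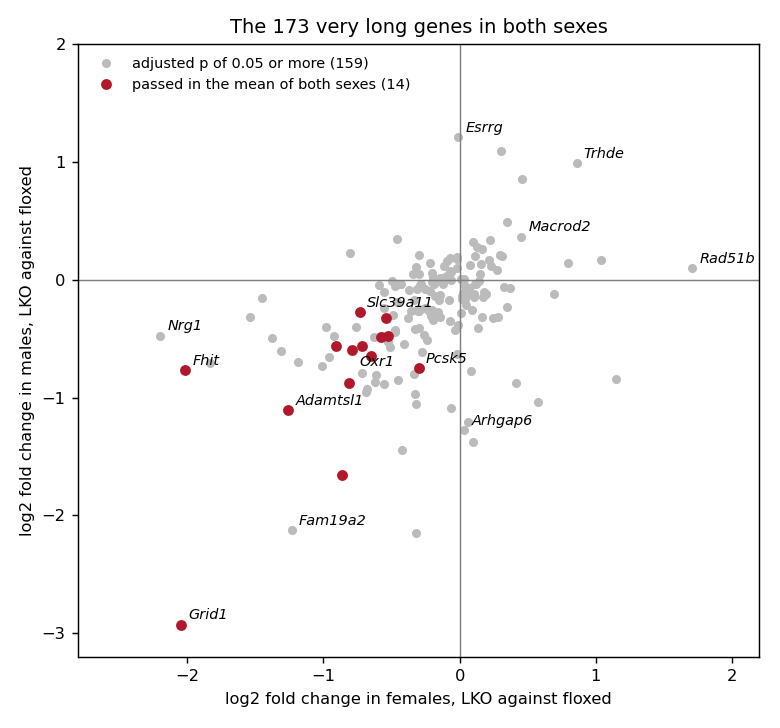
Log2 fold change of LKO against floxed livers in females (x axis) and males (y axis), 1 point for each of the 173 very long genes. The 14 genes called over both sexes together (red) all lie at the lower left, below 0 in both sexes, and Rad51b lies far to the right at 1.71 in females and 0.10 in males.

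Rad51b (chromosome 12, 79297282 to 79814690, plus strand), a gene of homologous recombination, went the other way. It was at 4.60 and 4.07 CPM in female floxed and 11 and 17.4 CPM in female LKO livers, and at 0.601 and 0.448 CPM in male floxed and 0.652 and 0.475 CPM in male LKO livers. The female LKO libraries stood far above every other library, and the male groups overlapped. Females rose by 1.71 on the log2 scale (SE 0.23, adjusted p = 0.0205), and the value in males was 0.10 (SE 0.41, adjusted p = 0.95). The difference of the effects, 1.61, did not pass over all genes (unadjusted p = 0.00823, adjusted p = 0.56). The female call was lost without female floxed 1 (adjusted p = 0.195), female floxed 2 (0.231) or female LKO 2 (log2 fold change 1.34, adjusted p = 0.0987).

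No very long gene passed the test of a difference between the sexes in the LKO effect by edgeR, where 0% and 0.00602% of all genes did as higher and lower. At an unadjusted p under 0.05, 11 had a higher and 8 a lower effect in females, where 3.61% and 3.55% of all genes did, and DESeq2 called 1. The smallest p belonged to Arhgap6, an X-linked GTPase-activating gene. It was at 7.47 and 8.36 CPM in female floxed, 8.60 and 7.58 CPM in female LKO, 8.32 and 5.85 CPM in male floxed and 3.08 and 2.78 CPM in male LKO livers. Only the male LKO libraries stood apart, with a log2 fold change of -1.28 in males (SE 0.20, adjusted p = 0.0542) and 0.03 in females (SE 0.18, adjusted p = 0.96). The difference of 1.31 had an unadjusted p of 0.00093 and an adjusted p of 0.34. The orphan nuclear receptor gene Esrrg was at 4.2 to 4.43 CPM in all 4 female libraries, at 1.26 and 0.991 CPM in male floxed and at 3.37 and 1.86 CPM in male LKO livers (difference -1.22, adjusted p = 0.59).

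The 6 genes with every LKO library above every floxed library in both sexes included Trhde, Macrod2, Dst, Bcas3 and Dock4, and none of the 6 passed. Trhde, the gene of the ectoenzyme that degrades thyrotropin-releasing hormone, was at 0.235 and 0.317 CPM in female floxed, 0.502 and 0.509 CPM in female LKO, 1.80 and 1.53 CPM in male floxed and 2.97 and 3.66 CPM in male LKO livers. The LKO libraries were higher within each sex, and males higher in each genotype (log2 fold change 0.92, SE 0.22, adjusted p = 0.0787). Dock4 had 0.10 and Macrod2 0.41.

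Sex itself separated many of the very long genes. In the mean of both genotypes 30 were higher and 25 lower in females, 17.3% and 14.5% of the 173, where 7.69% and 8.14% of all genes tested passed. All 4 female libraries exceeded all 4 male libraries for 25 genes, where 8.94% of all genes did, and lay below them for 24, where 8.92% did. Grm8 and Rims2, which rest on 1 side, are among the genes lower in females by both counts. The median log2 difference was 0.09, against 0.00 over all genes. Of the 14 genes that fell in LKO livers, Pcsk5, Grid1 and Cpq were higher and Oxr1 and Slc39a11 lower in females.

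Among the genes higher in females Rad51b differed most, by a log2 difference of 3.84 (SE 0.22, adjusted p = 6.38e-06), 14.3-fold. Fam19a2, a chemokine-like gene, was at 10.6 and 9.43 CPM in female floxed, 5.77 and 2.61 CPM in female LKO, 1.68 and 0.224 CPM in male floxed and 0.326 and 0.110 CPM in male LKO livers. Its male floxed libraries lay far apart (log2 difference 3.81, SE 0.51, adjusted p = 0.0013). Shank2, a scaffold gene, was at 37.5 to 45.4 CPM in the female and 15.6 to 19.3 CPM in the male libraries, a log2 difference of 1.29 (SE 0.09, adjusted p = 2.67e-05). The cyclic AMP phosphodiesterase gene Pde4b (0.96), the teneurin gene Tenm3 (0.94), the calcium sensor gene Ncald (0.88), Pcsk5 (0.85), the kinase gene Camk1d (0.75) and the stellate cell gene Reln (0.49) were higher in females in all 4 libraries. The other stellate cell markers, summed above without Reln, were also higher in females within each genotype, and their part in the value of Reln was not tested.

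Genes higher in males included several receptors and adhesion molecules at low levels. Grm8, a metabotropic glutamate receptor gene, was at 3.0 and 2.14 CPM in male floxed and 1.01 and 1.5 CPM in male LKO livers and at 0 to 0.0684 CPM in the 4 female libraries, where fewer than 2 reached 10 counts. Ncam2 was at 2.32 to 3.73 CPM in males and 0.127 to 0.627 CPM in females (log2 difference -3.16, SE 0.25, adjusted p = 4.77e-05). The muscarinic receptor gene Chrm3 was at 2.69 to 3.58 CPM in males and 0.235 to 0.573 CPM in females (-3.05, SE 0.20). Both genes thus differed by more between the sexes than between any 2 libraries of a sex. The collagen gene Col25a1 (-2.71), Trhde (-2.64), the polarity gene Pard3b (-1.44), the Notch coactivator gene Maml3 (-1.29), the adhesion receptor gene Adgrv1 (-1.27), Arhgap26 (-0.71) and the transcription factor gene Zbtb20 (-0.62) were also higher in males, the last at 65.2 to 71.4 CPM in females and 86.2 to 116 CPM in males.

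**Figure D5:**
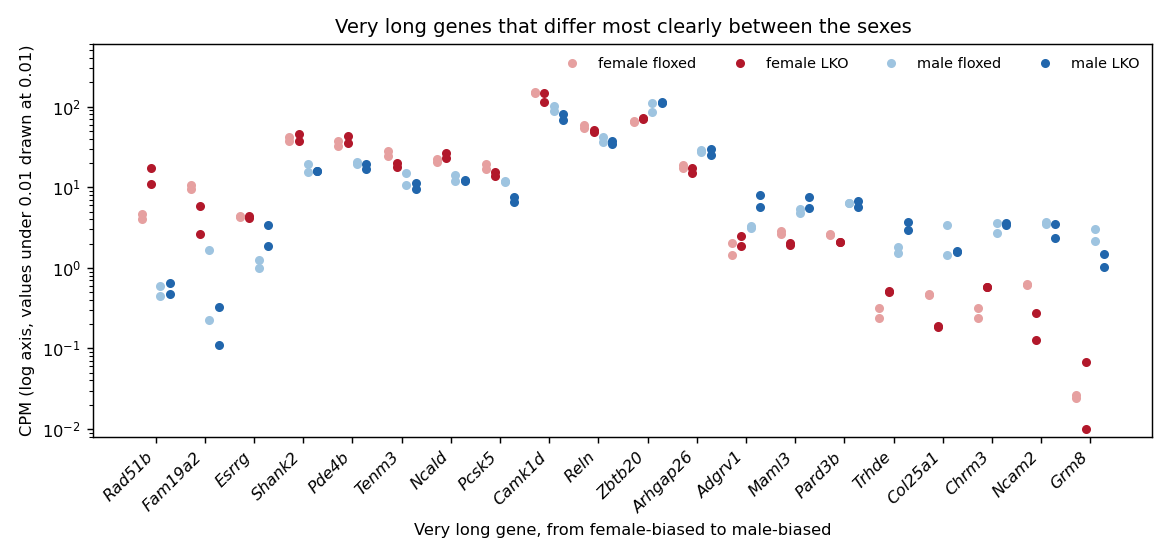
Level in CPM (y axis, log axis, with values under 0.01 drawn at 0.01) of the 20 very long genes with the smallest p between the sexes, 10 in each direction, ordered from female-biased to male-biased (x axis). Points are the 8 libraries, coloured by sex and genotype, and Rad51b shows the female LKO libraries (11 and 17.4 CPM) above the female floxed ones.

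The 5 most abundant held 28.3% of the summed level of all 173. Per exonic length the order after Dpyd (42.7 CPM per kb) was Gphn (17.1), the RNA-binding nuclease gene Snd1 (16.2), Camk1d (15.2), Cpq (9.42), Oxr1 (6.86), Sugct (6.79), Immp2l (6.60), Slc39a11 (6.51) and Nfib (5.69). Of these 10, 6 fell in the mean of both sexes. Snd1 did not pass, with a log2 fold change of -0.30 in females and 0.05 in males. Of the 5 longest by deposited span, Fhit fell, and Fgfr2 (-0.14), the phosphatase gene Ptprd (0.04), Dmd (-0.11) and Macrod2 (0.41) did not pass. Ptprd was at 81.3 to 94.5 CPM in all 8 libraries.

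Genes of RNA-binding proteins, topoisomerases and elongation factors that act on long transcripts were measured beside them, from a list of 40 that holds no very long gene. All 40 were tested, with a median of -0.02 in the mean of both sexes, where 3 fell and 0 rose. Besides Matr3 these included Pspc1 (-0.61, SE 0.10, adjusted p = 0.0286), a paraspeckle protein gene. Top1, Top2b, Sfpq and Nono had values of 0.04, -0.10, -0.01 and 0.05 and did not pass. The value of Sfpq averaged 0.25 in females and -0.26 in males, a difference that did not pass (unadjusted p = 0.0104, adjusted p = 0.59). Whether these levels bear on the very long genes was not tested.

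Marker genes of other cells were followed in the same libraries, since many very long genes are known from cells other than hepatocytes. The list of 8 neuron markers holds Syt1 and Rbfox3, which are themselves very long genes. The other 6 summed to between 0 and 0.571 CPM in each library, and of these Nefl and Elavl4 were at 0 in all of them. Endothelial markers summed to 358 to 377 CPM in female floxed, 309 to 341 in female LKO, 289 to 329 in male floxed and 264 to 303 CPM in male LKO livers, with 0 of 12 called. Cholangiocyte markers summed to 114 to 126, 66.9 to 68.1, 89.2 to 108 and 81.0 to 103 CPM in the same order, with 0 of 9 tested called. Kupffer cell and macrophage markers, with 0 of 10 called, summed to more in female LKO (471 to 489 CPM) than in female floxed livers (454 to 455 CPM) and overlapped in males (330 to 349 CPM in floxed, 271 to 346 CPM in LKO). Lymphocyte markers, with 0 of 10 called, summed to 17.3 to 21.3 CPM over the female libraries, 18.9 to 22.7 CPM in male floxed and 14.7 to 15.2 CPM in male LKO livers. Immediate early genes, which respond to tissue handling, summed to 308 to 316 CPM in female floxed and 339 to 369 CPM in female LKO livers. In males these genes summed to 254 to 383 CPM in floxed and 529 to 804 CPM in LKO livers. Of the 17 tested, 2 had a negative log2 fold change in the mean of both sexes. Among the 17, 0 fell and 1 rose, Nr4a1 (2.47, SE 0.49, adjusted p = 0.0431). Hepatocyte markers dominated every library, at 90179 to 127082 CPM. They summed to 123773 to 127082 CPM in female floxed and 115898 to 119882 CPM in female LKO livers. In males they summed to 97413 to 114172 CPM in floxed and 90179 to 92317 CPM in LKO livers. Of the 9 hepatocyte markers tested, 7 had a negative log2 fold change in the mean of both sexes. Among them 0 rose and 1 fell, Apoa1 (-0.37, SE 0.07, adjusted p = 0.0414). A negative log2 fold change in the mean of both sexes was found for 12 of 12 endothelial and 9 of 9 cholangiocyte markers. It was found for 8 of 10 lymphocyte and 7 of 10 Kupffer cell and macrophage markers, against 51.0% of all genes. The part of these cell types and of handling in the values of the very long genes was not tested.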

How the data were processed

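Stranded poly(A) RNA-seq libraries of pooled mouse liver were analysed as gene counts: the authors deposited raw counts per gene for 8 libraries, with gene positions and biotypes. Per the submitters' processing notes, the tools were HISAT2 2.0.5 and featureCounts 1.5.0-p3 and the build mm10. The annotation release and the strand setting of the counting are not stated in the sources used here. Genes that overlap another gene (147 of 173 on the opposite strand, 39 with one that was tested) are therefore less certain. Lines without a gene (3, including totals) were left out.

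From these counts all 8 libraries were fitted with edgeR 4.0.16 (limma 3.58.1, R 4.3.3): TMM, filterByExpr, 1 coefficient per group, quasi-likelihood tests (residual degrees of freedom 4), Benjamini-Hochberg adjustment over the 16613 genes tested and a threshold of 0.05. These genes held 99.9% of the counts. Libraries were grouped by sex and genotype from their titles. CPM uses TMM-adjusted library sizes, and SE is the log2 fold change over the root of F. Exon positions came from GENCODE M21 (168 of 173 genes with the same coordinates), and promoter windows and other spans from RefSeq GRCm38.p6. Scripts were tested on simulated data.

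The very long genes, the gene lists and the tests were chosen with earlier results of these data known. Named are genes with an adjusted p under 0.05 (up to 10 per direction and contrast), those with the largest changes without overlap at 1 CPM or more, the 10 highest per exonic length, the 5 longest, those next to the limits, up to 4 per list, and the genes of the 40-gene list that passed. Other names were chosen after their values were seen. Some genes that these rules name are not reported here. Results were also computed with DESeq2 1.42.0, limma-voom, RLE size factors, 2 other filters, a robust prior, only the libraries compared, a replicate block, each library left out, and other limits of span, counts or RefSeq span.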

Additional observations from a re-analysis of the deposited data

How the results depend on the processing

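In the mean of both sexes the number of very long genes called, 14, was 12 to 20 with RLE size factors, limma-voom, DESeq2, a robust prior or a 1 CPM filter, 10 with the replicate block and 42 (38 lower, 4 higher) with no filter, and 1 to 27 with 1 library left out. The 14 genes kept their negative direction in each of these fits, and Oxr1 passed in all of them. The replicate numbers do not pair the libraries (correlations of same-numbered deviations from -0.16 to 0.10), and the block ended the calls of Adamtsl1, Dlgap1, Fhit and Immp2l in the mean and of Slc39a11 in females. In females the number, 3, was 12 with DESeq2, 7 with limma-voom, 26 with no filter, 9 with a robust prior, 11 with only the libraries compared, 2 with the block, 1 for spans over 500 kb and 0 to 13 with 1 library left out. In males the number, 1, was 8 with DESeq2, 24 with no filter, 4 with a robust prior, 0 with only the libraries compared, 0 over 500 kb and 0 to 9 with 1 library left out. For the sex difference of the effect, 0, it was 1 with DESeq2, 6 with no filter and 0 to 1 with 1 library left out. Between the sexes the number, 55, was 29 over 500 kb and 39 to 64 with 1 library left out. The cause of these changes was not tested, beyond the smaller number of genes over 500 kb.

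The median log2 fold change in the mean stayed below 0: it was -0.17 with the 1 CPM filter, -0.15 for spans over 300 kb, -0.096 for the higher count minimum, -0.15 for genes of at least 1 CPM and -0.21 to -0.14 with 1 library left out. In females it was -0.13 for the higher count minimum, -0.15 for genes of at least 1 CPM and -0.20 to -0.16 with 1 library left out. In males it was -0.12 over 300 kb, -0.26 over 500 kb, -0.071 for the higher count minimum and -0.26 to -0.080 with 1 library left out. Between the sexes it was 0.060 over 300 kb and 0.048 to 0.13 with 1 library left out, and for the sex difference 0.046 over 500 kb and -0.065 to 0.049 with 1 library left out. The higher count minimum was a sum of at least 1000. The rules on RefSeq span and on genes of at least 1 CPM were added after seeing the data. The value of Nfib changed sign around 0, with -0.0063 under no filter, -0.00686 with the 1 CPM filter and -0.034 to 0.042 with 1 library left out. With 2 libraries a group, a group left with 1 is assumed to vary like the others, and of the 32 genes under 1 CPM, 0 were called between LKO and floxed and 4 between the sexes.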

Other observations

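Genes outside the limits used above gave further values. Among protein-coding genes of 300 to 400 kb, the neurotrophin receptor gene Ntrk2 was higher and the peptide-amidating enzyme gene Pam lower in LKO livers in the mean of both sexes. Ntrk2 was at 24.3 and 25 CPM in female floxed, 55.1 and 24.6 CPM in female LKO, 4.42 and 5.56 CPM in male floxed and 26.1 and 17.3 CPM in male LKO livers (log2 fold change 1.41, SE 0.24, adjusted p = 0.0295). Female LKO 2 lay within the range of the floxed females, while both male LKO libraries exceeded the male floxed ones. Pam was at 28.8 to 30.5 CPM in female floxed, 20.3 to 22.7 CPM in female LKO, 21.8 to 25 CPM in male floxed and 19.2 to 19.8 CPM in male LKO livers (-0.36, SE 0.07, adjusted p = 0.0419), without overlap within a sex.

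Pkhd1, a cholangiocyte and kidney gene of 560.3 kb that was left out by name, had a log2 fold change of -0.09 (adjusted p = 0.65). Noncoding genes of such length did not pass: Snhg14 (667.8 kb) had -0.13 and Mir99ahg (537.1 kb) -0.06. Over the 8 libraries Snhg14 ran from 1.61 to 3.22 CPM, both in male LKO livers, and Mir99ahg from 1.39 to 2.46 CPM.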
